A study of Homo sapiens with 12 samples.

Results

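The genes described here encode the proteins of the small nuclear ribonucleoproteins (snRNPs), the RNA-protein particles that recognise and remove introns, and the machinery that assembles them. They were 38 genes chosen by symbol, out of 23368 symbols in each of 2 count tables. They cover the Sm core, proteins specific to the U1, U2, U5, U4/U6.U5 and U11/U12 particles, LSm proteins and SMN-complex subunits. LSM8, SMN1 and SMN2 are not among them. Messenger RNA selected on oligo-dT beads was sequenced from SUDHL6 cells, an established line from a human diffuse large B-cell lymphoma. One arm received vehicle (0.01% DMSO) and the other 200 nM GSK591, a compound that blocks PRMT5, an enzyme that methylates arginines, each for 24 h or 96 h, giving 4 groups of 3 libraries. All libraries come from this single line, and no label says that the 3 libraries of a group are separate cultures, so the p-values measure the spread between these libraries, which may be technical.

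Each spliceosomal snRNA except U6 and its minor counterpart carries a ring of 7 Sm proteins. The ring is loaded in the cytoplasm by the SMN complex, after the chaperone pICln brings the Sm proteins to PRMT5, which dimethylates arginines in the tails of SmB, SmD1, SmD3 and LSm4. Related LSm proteins form a nuclear ring on U6 and a cytoplasmic ring that promotes mRNA decay, and a hybrid ring with LSm10 and LSm11 sits on U7, the snRNA of histone pre-mRNA processing. Sm proteins are thus direct substrates of the inhibited enzyme, and the comparisons ask whether the mRNAs of these proteins and of their partners change with the inhibitor at each time. The counts report mRNA and say nothing of protein or of methylation.

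Total counts were 48.5 to 64.4 M (M, 1e6 counts) in 11 libraries and 547.9 M in vehicle replicate 1 of 96 h, 10.2 times the median of the others. At 96 h vehicle replicate 2 was the highest vehicle library for 34 of the 38 members and GSK591 replicate 2 was the highest treated library for 16 and the lowest for 14, and results are given without these libraries numbered 2 where that changes a member's call. The 8 B-cell and germinal centre markers lay between 88.6 and 4686 CPM (counts scaled to a common depth of 1 M) in every library. The 8 markers of T cells, epithelium, fibroblasts and myeloid cells summed to 0.270 to 0.949 CPM in the vehicle libraries, to 0.345 to 0.448 CPM with GSK591 at 24 h and to 1.29 to 2.50 CPM with GSK591 at 96 h. CD3D and KRT19 were at 0 in every library. The part of this shift in the results below was not tested.

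After 24 h few of these mRNAs were called, all of them higher, and no call held in every alternative run. Of 38 members, all tested, 5 were called higher and 0 lower, where "called" means an adjusted p under 0.05 in edgeR's quasi-likelihood test with Benjamini-Hochberg adjustment over all genes tested. Across all genes 14.7% were called, 7.44% higher and 7.29% lower, and the members called higher made up 13.2% of the list. At an unadjusted p under 0.05 edgeR had 7 members higher and 0 lower, but the share of all genes at that threshold was not counted. DESeq2 also called 5 higher and 0 lower. All 5 calls were lost with all 12 libraries in 1 fit, where 29 genes in all were called (adjusted p of the 5 from 0.303 to 0.527). Of 13 alternative runs, this 1 alone ended the calls of SNRPB, SNRNP70 and SNRNP200. The LSM10 call was lost in 2 and the DDX20 call in 6. Among genes at least as abundant as the lowest member the background was 10.3% higher and 8.25% lower, so the members' 13.2% higher was near it. The median log2 fold change of the members was 0.02, against 0.00 for all genes. In 8 members the 3 treated values lay above the 3 vehicle values and in 0 they lay below, with a background of 15.6% and 16.3%.

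After 96 h most of the list was lower. Of the 38 members, 21 were called lower and 2 higher, 55.3% and 5.3% of the list, while 40.2% of all genes were called, 19.6% lower and 20.7% higher. Among genes at least as abundant as the lowest member the background was 22.5% lower and 21.3% higher. The median log2 fold change was -0.19 for the members and 0.00 for all genes, and the members ran from -0.59 for SNRPF to 0.24 for LSM10. Treated values lay below all vehicle values in 22 members and above them in 3, with a background of 28.0% and 26.9%. No called member changed by 2-fold. In simulated data a log2 change of 0.3 was recovered in 24.0% of genes at 96 h, against 96.0% at 24 h. The simulation changed 200 genes, whereas 5437 were called at 96 h in the data. Its adjustment was thus stricter, and the 24.0% does not carry over to the members. A member not called at 96 h may still have changed. CPM are relative to all counted mRNA of a pool of cells, so fewer cells carrying an mRNA and less of it per cell cannot be told apart.

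**Figure D1:**
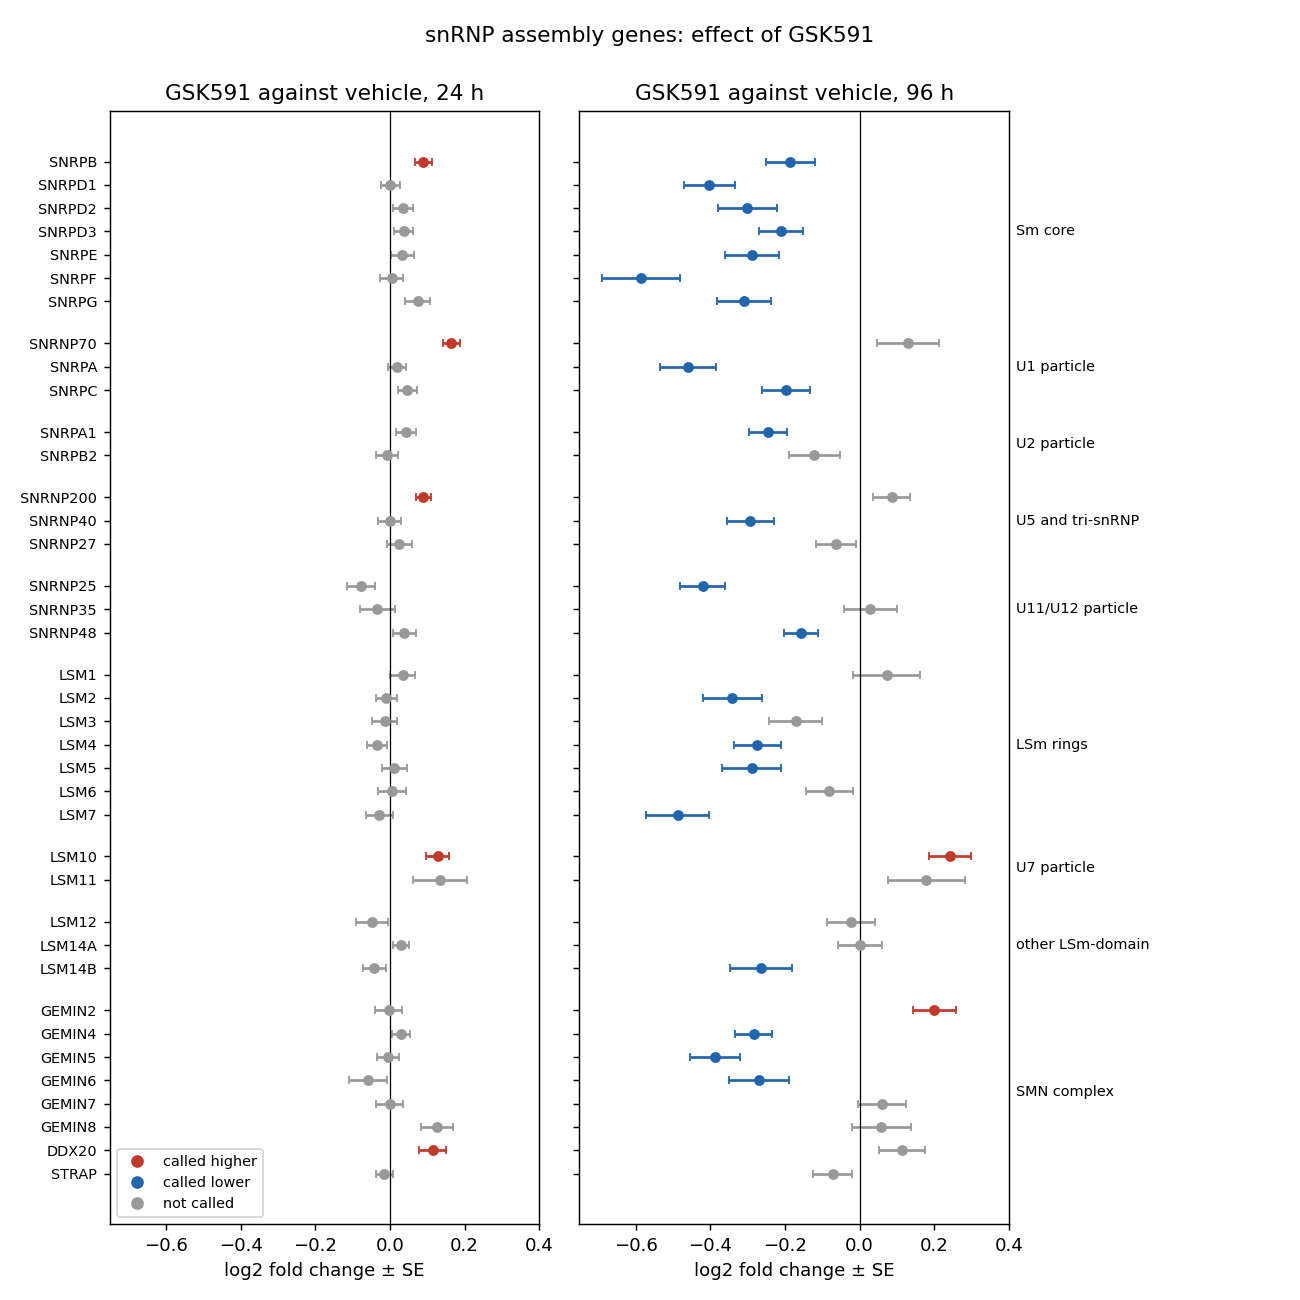
Log2 fold change of GSK591 over vehicle (x axis, ± SE) for the 38 members, ordered by role, at 24 h (left) and 96 h (right), from 3 libraries per group. Red and blue points passed an adjusted p of 0.05; 5 red points and no blue one stand at 24 h, and 21 blue and 2 red points at 96 h.

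The Sm core genes, which encode the ring shared by U1, U2, U4 and U5, were the most uniform set. All 7 were called lower at 96 h, by -0.19 to -0.59 on the log2 scale with a median of -0.30, and in each of them the 3 treated values lay below the 3 vehicle values. SNRPF fell most. It stood at 50.9, 60.4 and 50.4 CPM in the vehicle libraries and at 31.0, 40.0 and 36.6 CPM in the treated ones (log2 fold change -0.59 ± 0.10 SE, adjusted p = 0.0035 in edgeR's test). Every treated library was at least 10 CPM below the lowest vehicle library. At 24 h the same gene stood at 66.5 ± 2.24 CPM in vehicle and 66.7 ± 1.66 CPM in treated cells (SD, n = 3).

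SNRPD1 encodes a ring protein whose tail PRMT5 methylates. Its 96 h vehicle libraries held 131, 148 and 126 CPM and its treated libraries 97.5, 105 and 104 CPM (-0.40 ± 0.07, adjusted p = 0.0030). The treated values were tight and separate from vehicle, and at 24 h the gene had stood at 167 CPM in both groups (0.00 ± 0.02, adjusted p = 0.978). SNRPD3, another PRMT5 substrate, fell less, from 108 ± 7.07 to 93.2 ± 2.49 CPM (SD, n = 3; -0.21 ± 0.06, adjusted p = 0.0216). Its call was lost without vehicle replicate 1 or 2 or GSK591 replicate 1 or 3 (adjusted p = 0.0634, 0.0657, 0.0705 and 0.0508).

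SNRPB, which encodes SmB and its longer isoform SmB′, was the Sm core gene that was called in opposite directions at the 2 times. At 24 h it rose from 315, 312 and 312 CPM to 330, 341 and 328 CPM (0.09 ± 0.02, adjusted p = 0.0094). All treated values lay above all vehicle values by a small margin. At 96 h it fell from 275, 300 and 281 CPM to 231, 260 and 261 CPM (-0.19 ± 0.07, adjusted p = 0.0489). The later call stood at the threshold. It was lost with RLE size factors in edgeR (adjusted p = 0.0523) and with a filter of at least 5 CPM in 3 samples (adjusted p = 0.0585), and held in DESeq2. It was also lost without vehicle replicate 1, 2 or 3 or GSK591 replicate 1 or 3 (adjusted p = 0.0785, 0.145, 0.0914, 0.147 and 0.0679).

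The other Sm core genes fell by similar amounts at 96 h. SNRPG went from 69.9 ± 6.02 to 56.4 ± 2.92 CPM (-0.31 ± 0.07, adjusted p = 0.0102). SNRPD2 went from 180 ± 13.4 to 146 ± 12.8 CPM (-0.30 ± 0.08, adjusted p = 0.0162), a call lost without vehicle replicate 2 (adjusted p = 0.0618). SNRPE went from 101 ± 8.51 to 82.4 ± 5.06 CPM (-0.29 ± 0.07, adjusted p = 0.0141; SD, n = 3 for all). Vehicle replicate 2 was the highest vehicle library for each of these genes, and without it 4 of the 7 Sm core genes remained called. With both libraries numbered 2 left out all 7 were called.

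**Figure D2:**
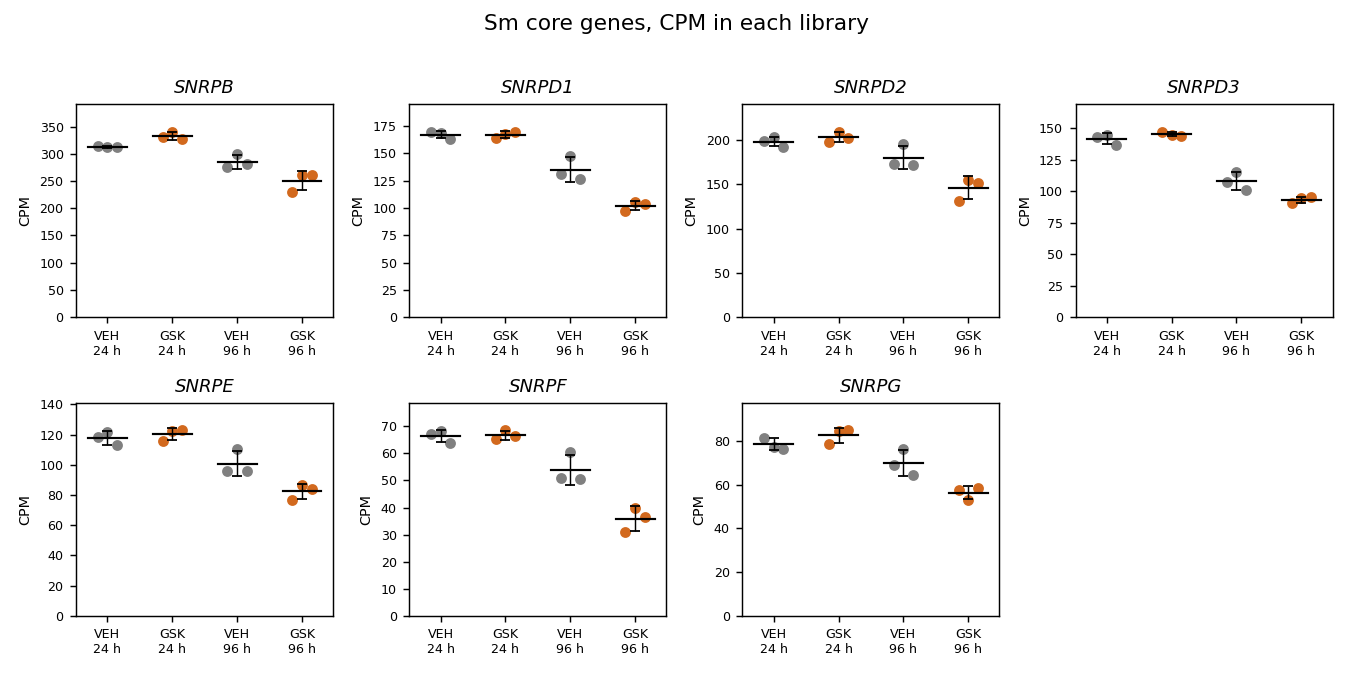
CPM (y axis, from 0; TMM-scaled within each time) of the 7 Sm core genes in vehicle (VEH, grey) and GSK591 (GSK, orange) libraries at 24 h and 96 h. Points are libraries 1 to 3 from left to right, the line is the mean and the bar 1 SD; in each panel the 3 treated points at 96 h lie below the 3 vehicle points.

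The U1 particle, which recognises the 5′ splice site, was split. SNRPA, the A protein of U1, had 124, 138 and 122 CPM in vehicle and 86.5, 102 and 90.3 CPM in treated cells at 96 h (-0.46 ± 0.08, adjusted p = 0.0027), with no overlap. SNRPC, the C protein of U1 that contacts the splice site, fell from 129 ± 8.67 to 113 ± 5.42 CPM (-0.20 ± 0.06, adjusted p = 0.0356), a call lost when any library other than GSK591 replicate 2 was left out (adjusted p from 0.0538 to 0.113). SNRNP70, the U1-70K subunit, behaved otherwise.

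SNRNP70 was the member with the largest change at 24 h, from 243, 249 and 257 CPM in vehicle to 283, 279 and 278 CPM in treated cells (0.16 ± 0.02, adjusted p = 0.000154). The groups were separate by over 20 CPM. At 96 h its vehicle libraries held 268, 240 and 277 CPM and its treated libraries 267, 320 and 272 CPM (0.13 ± 0.08, adjusted p = 0.238). There the libraries numbered 2 were the lowest vehicle and the highest treated value, and the groups overlapped. Over 15 alternative runs the 96 h value ran from -0.02 to 0.17, and its sign changed in 1.

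Of the U2 proteins, which bind the stem-loops of U2, SNRPA1 fell at 96 h from 87.4, 89.3 and 83.4 CPM to 71.7, 75.1 and 72.6 CPM (-0.25 ± 0.05, adjusted p = 0.0062). Its groups did not overlap. SNRPB2 stood at 55.1 ± 4.43 and 50.6 ± 1.94 CPM (SD, n = 3) and was not called (-0.12 ± 0.07, adjusted p = 0.18). Among U5 and tri-snRNP proteins, the WD-repeat protein gene SNRNP40 fell from 57.5, 64.2 and 56.1 CPM to 47.5, 47.7 and 49.8 CPM (-0.29 ± 0.06, adjusted p = 0.0076). SNRNP200, the helicase that unwinds U4 from U6, went the other way at 24 h.

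The SNRNP200 values at 24 h were 779, 790 and 792 CPM in vehicle and 832, 837 and 843 CPM in treated cells (0.09 ± 0.02, adjusted p = 0.0038). At 96 h the treated libraries, at 748, 720 and 737 CPM, again lay above the vehicle libraries, at 697, 702 and 679 CPM, but the gene was not called (0.09 ± 0.05, adjusted p = 0.197). It was called with both libraries numbered 2 left out (0.11, adjusted p = 0.0454). SNRNP27 of the tri-snRNP was called at neither time (0.02 ± 0.03 and -0.06 ± 0.05).

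The U11/U12 particle recognises the rare minor introns. SNRNP25 stood at 37.1, 39.2 and 37.7 CPM in vehicle and at 28.2, 27.2 and 29.8 CPM in treated cells at 96 h (-0.42 ± 0.06, adjusted p = 0.0017). This was the smallest adjusted p of the list at that time, and the library numbered 2 was the lowest treated one. SNRNP48 fell from 86.1 ± 0.385 to 77.2 ± 1.40 CPM (SD, n = 3; -0.16 ± 0.05, adjusted p = 0.0241), a call lost when any library other than GSK591 replicate 2 was left out (adjusted p from 0.0539 to 0.1). SNRNP35 was not called (0.03 ± 0.07, adjusted p = 0.762).

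Of the 7 LSm ring genes among the members, 4 were called lower at 96 h, where 19.6% of all genes were. None of the 7 was called at 24 h by edgeR, and 0 had an unadjusted p under 0.05. LSM7 fell most, from 43.6, 49.6 and 45.2 CPM to 29.9, 36.6 and 32.0 CPM (-0.49 ± 0.08, adjusted p = 0.0033). LSM2 went from 80.6, 93.4 and 80.5 CPM to 61.3, 71.1 and 68.3 CPM (-0.34 ± 0.08, adjusted p = 0.0097). In both genes replicate 2 was the highest library of its arm, and the arms stayed separate.

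LSM4 encodes a ring protein with an arginine-rich tail that PRMT5 methylates. It fell from 106, 115 and 108 CPM to 83.7, 95.0 and 93.2 CPM at 96 h (-0.27 ± 0.06, adjusted p = 0.0098). LSM5 fell from 40.8 ± 3.88 to 33.3 ± 1.78 CPM (SD, n = 3; -0.29 ± 0.08, adjusted p = 0.0188), a call lost without vehicle replicate 2 or GSK591 replicate 1 or 3 (adjusted p = 0.054, 0.0617 and 0.0613). LSM3 (-0.17 ± 0.07, adjusted p = 0.0792; 0.0127 with all 12 libraries in 1 fit) and LSM6 (-0.08 ± 0.06, adjusted p = 0.321) were not called.

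LSM1, the subunit found in the cytoplasmic decay ring and not in the U6 ring, was the LSm ring gene without a lower value at 96 h. It stood at 40.0, 40.5 and 39.3 CPM in vehicle and at 45.5, 35.8 and 44.7 CPM in treated cells (0.07 ± 0.09, adjusted p = 0.538). GSK591 replicate 2 lay below vehicle and the other treated libraries above it. Without that library LSM1 was called higher (0.17, adjusted p = 0.0111), as it was with both libraries numbered 2 left out (0.18, adjusted p = 0.00199).

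The U7 genes, which replace SmD1 and SmD2 in the U7 ring, did not share the fall. LSM10 was called higher at both times. At 24 h it rose from 66.8, 65.7 and 67.0 CPM to 74.9, 69.4 and 73.7 CPM (0.13 ± 0.03, adjusted p = 0.0086), a call lost without GSK591 replicate 1 (adjusted p = 0.0676). At 96 h it rose from 65.6, 65.5 and 68.9 CPM to 76.4, 76.5 and 83.5 CPM (0.24 ± 0.06, adjusted p = 0.0098). The arms did not overlap at either time. LSM11 is the least abundant member, at 6.63 ± 0.530 CPM in vehicle at 24 h, and was not called at 24 h or 96 h (0.14 ± 0.07 and 0.18 ± 0.10, adjusted p = 0.227 and 0.19).

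Among the other LSm-domain genes, LSM14B, a paralogue of the P-body protein gene LSM14A, fell at 96 h from 46.4 ± 1.75 to 38.5 ± 4.44 CPM (SD, n = 3; -0.26 ± 0.08, adjusted p = 0.0321). The call was lost when any library other than GSK591 replicate 2 was left out (adjusted p from 0.0537 to 0.106). LSM14A stood at 320 CPM in both arms (0.00 ± 0.06, adjusted p = 0.987) and LSM12 was not called (-0.02 ± 0.06, adjusted p = 0.798).

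The SMN complex places Sm proteins on snRNA. Of its 8 genes among the members, 3 were called lower at 96 h and 1 higher, where 19.6% of all genes were called lower and 20.7% higher. These counts were not tested against those shares. GEMIN5, the subunit that recognises the snRNA, fell from 51.2, 56.3 and 52.2 CPM to 37.7, 43.0 and 41.3 CPM (-0.39 ± 0.07, adjusted p = 0.0032). GEMIN4, a scaffold subunit bound to the helicase DDX20, fell from 94.3, 98.9 and 95.8 CPM to 78.4, 77.3 and 81.8 CPM (-0.28 ± 0.05, adjusted p = 0.0033). Neither gene had overlapping arms, and neither had been called at 24 h (0.00 ± 0.03 and 0.03 ± 0.02). GEMIN6, which pairs with GEMIN7 through an Sm-like fold, fell from 15.1 ± 0.793 to 12.5 ± 0.775 CPM (SD, n = 3; -0.27 ± 0.08, adjusted p = 0.0267). That call was lost without vehicle replicate 1, 2 or 3 or GSK591 replicate 1 (adjusted p = 0.0673, 0.0806, 0.0547 and 0.0837).

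GEMIN2, the subunit that holds the Sm proteins before the ring closes, rose at 96 h from 28.8, 30.3 and 28.2 CPM to 33.1, 32.7 and 34.5 CPM (0.20 ± 0.06, adjusted p = 0.0243). The arms did not overlap, but the call was lost without vehicle replicate 1 or 3 or GSK591 replicate 1 or 3 (adjusted p = 0.107, 0.113, 0.0673 and 0.0888). Without a filter on low counts it was lost too (adjusted p = 0.075). DDX20 (gemin3) rose at 24 h from 51.1, 48.7 and 50.4 CPM to 56.9, 51.6 and 54.1 CPM (0.11 ± 0.04, adjusted p = 0.0355). Its call was lost with library size alone (adjusted p = 0.0879) and without vehicle replicate 2 or 3 or GSK591 replicate 1 or 3 (adjusted p = 0.142, 0.0616, 0.221 and 0.09).

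At 96 h DDX20 was not called (0.11 ± 0.06, adjusted p = 0.167), but it was without GSK591 replicate 2 (0.16, adjusted p = 0.0157) and with both libraries numbered 2 left out (0.18, adjusted p = 0.00204). GEMIN8 stood just outside the threshold at 24 h (0.13 ± 0.04, adjusted p = 0.0511), with separate arms, and passed it with RLE factors and with no filter (adjusted p = 0.0484 and 0.0498). GEMIN7 and STRAP, a WD-repeat partner of the complex, were called at neither time.

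**Figure D3:**
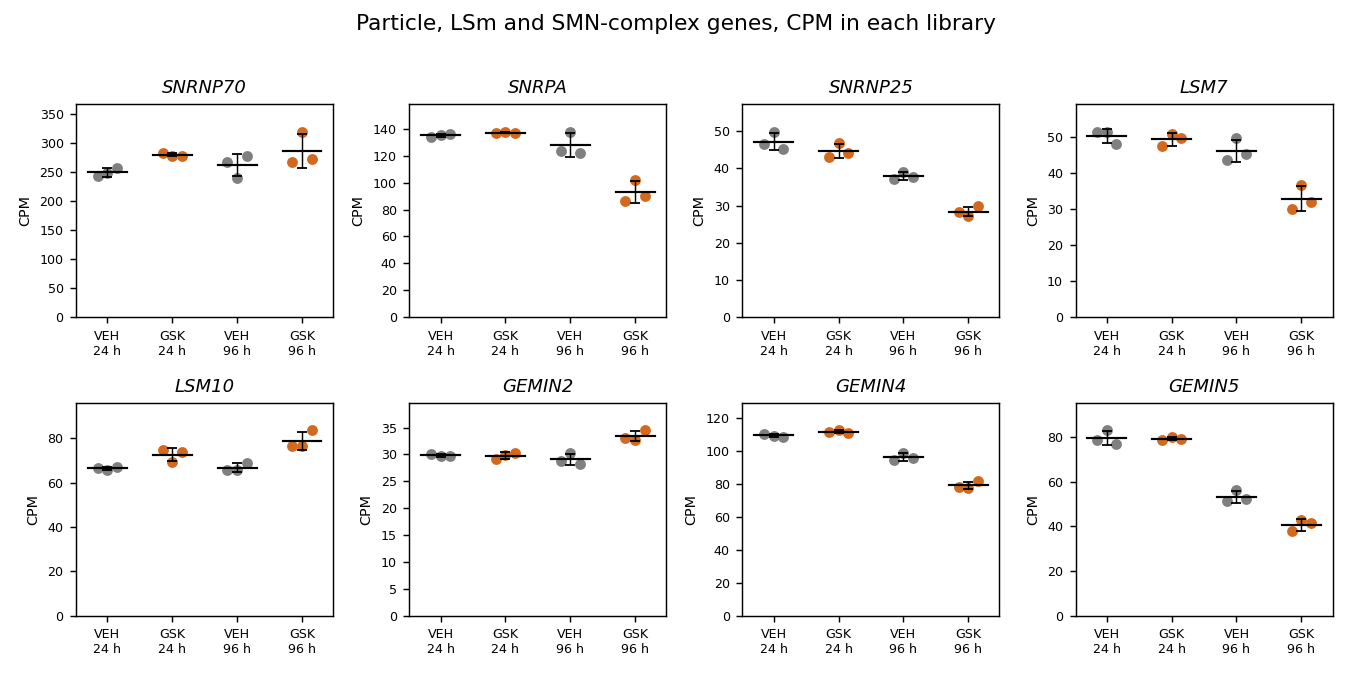
CPM (y axis, from 0; TMM-scaled within each time) of 8 particle, LSm and SMN-complex genes in vehicle (VEH, grey) and GSK591 (GSK, orange) libraries at 24 h and 96 h. Points are libraries 1 to 3 from left to right, the line is the mean and the bar 1 SD; SNRPA, SNRNP25, LSM7, GEMIN4 and GEMIN5 fell at 96 h while LSM10 and GEMIN2 rose.

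The effect of GSK591 differed between the times for 20 members in a fit of all 12 libraries. In 19 the 96 h effect was more negative than the 24 h effect and in 1, GEMIN2 (adjusted p = 0.0461), more positive, against 13.2% and 11% of all genes (24.1% together). The 19 included all 7 Sm core genes, led by SNRPF with a difference of -0.60 ± 0.11 (adjusted p = 0.00328) and SNRPD1 with -0.42 ± 0.08 (adjusted p = 0.00254). SNRPA differed by -0.49 ± 0.08 (adjusted p = 0.00135), LSM7 by -0.47 ± 0.09 (adjusted p = 0.00421) and GEMIN5 by -0.40 ± 0.07 (adjusted p = 0.00287). For SNRNP70, SNRNP200, LSM10 and DDX20, which were called higher at 24 h, no difference was called (-0.05 ± 0.09, -0.02 ± 0.05, 0.10 ± 0.07 and -0.02 ± 0.08). With both libraries numbered 2 of 96 h left out it was called for SNRNP70 (-0.19, adjusted p = 0.00087), and so were the differences of LSM1 (0.13, adjusted p = 0.0397) and LSM14B (-0.30, adjusted p = 0.000222). LSM14B, at an adjusted p of 0.0646 with all libraries, also passed with no filter, with DESeq2, with the deep library thinned and without GSK591 replicate 2 of 96 h (adjusted p = 0.0492, 0.0496, 0.0363 and 0.00108). LSM3 and GEMIN6 passed without GSK591 replicate 3 of 96 h (adjusted p = 0.0351 and 0.045). The calls of SNRPC and LSM4 were lost without vehicle replicate 3 of 24 h (adjusted p = 0.052 and 0.0515), and that of SNRPC also without GSK591 replicate 2 of 24 h (adjusted p = 0.0547). The GEMIN2 call was lost with no filter (adjusted p = 0.114) and in 10 of the 12 fits that left out a library (adjusted p from 0.0693 to 0.111). SNRPB was the one of the 5 for which a difference was called (-0.29 ± 0.07, adjusted p = 0.0106).

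The vehicle arms themselves were not level across the times. With all 12 libraries scaled together, the members' vehicle means at 96 h differed from those at 24 h by -0.64 (GEMIN5) to 0.14 (SNRNP48) on the log2 scale, with a median of -0.22 against 0.01 for all genes. SNRPD3 and SNRPC were lower by -0.46 and -0.43. Treated libraries were compared with vehicle libraries of the same time only. Time in culture and anything else that differed between the separately deposited tables cannot be told apart, and no test was made.

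The libraries of one arm differed among themselves more at 96 h than at 24 h. The coefficient of variation over 3 libraries had a median over the members of 2.61% in vehicle and 2.07% in treated cells at 24 h, and of 4.83% and 5.47% at 96 h. Vehicle replicate 2 of 96 h was the highest vehicle library for 34 of the 38 members, with a median of 0.07 on the log2 scale relative to the vehicle mean. In the treated arm of 96 h the medians were -0.27, -0.17 and -0.16 in replicates 1, 2 and 3. In each treated library most members lay below the vehicle mean, 28, 31 and 26 of 38. In vehicle replicates 1, 2 and 3 of 96 h 29, 4 and 33 of 38 lay below it, so these counts do not separate the arms.

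**Figure D4:**
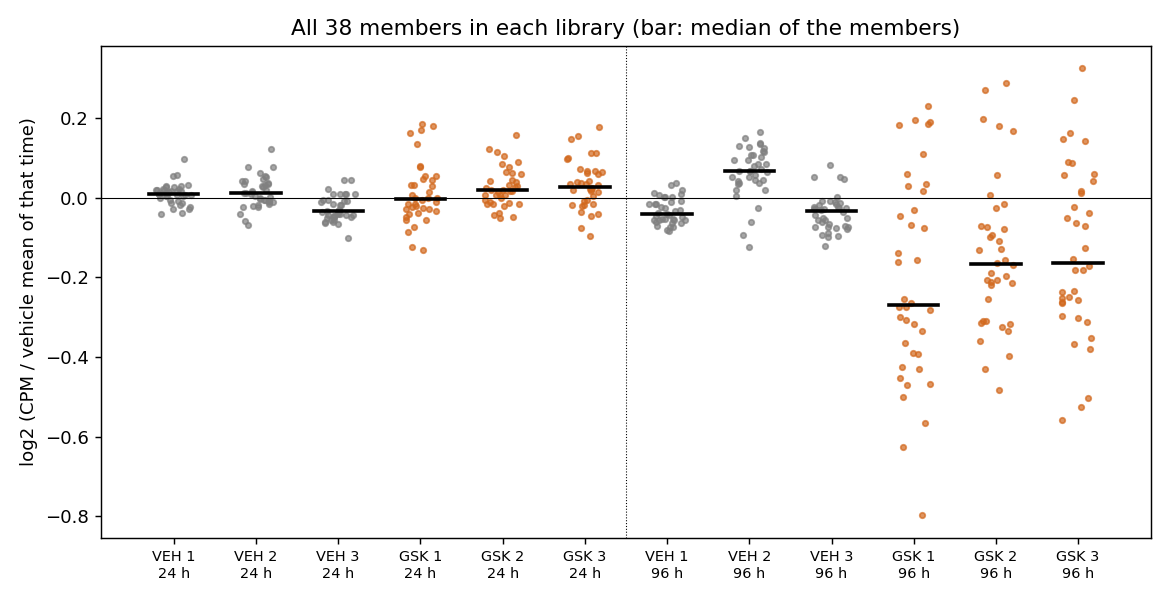
Log2 of each member's CPM over its vehicle mean at the same time (y axis), for the 38 members in each of the 12 libraries (x axis; VEH vehicle, GSK GSK591). The bar is the median of the members, which lay between -0.03 and 0.03 in the libraries of 24 h, between -0.04 and 0.07 in the vehicle libraries of 96 h and between -0.27 and -0.16 in the treated libraries of 96 h.

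Partners of these proteins were read from 8 lists, whose counts stand against 7.44% higher and 7.29% lower among all genes at 24 h and 20.7% and 19.6% at 96 h. Of the 12 partner genes named below as called at 24 h, PRPF3 kept its call with all 12 libraries in 1 fit (adjusted p = 0.000554) and the other 11 lost it (adjusted p from 0.13 to 0.436). In the PRMT5 complex and its cofactors 3 of 6 genes fell at 96 h and 0 rose. CLNS1A, the gene of the chaperone pICln, went from 83.6, 95.0 and 82.9 CPM to 60.9, 70.5 and 65.5 CPM (-0.41 ± 0.07, adjusted p = 0.00384), and WDR77, the obligate partner of PRMT5, from 123 ± 3.80 to 95.0 ± 6.08 CPM (SD, n = 3; -0.37 ± 0.06, adjusted p = 0.0026). The third was COPRS, listed as C17orf79, which was named after its value was seen (-0.31 ± 0.08, adjusted p = 0.0149). Leaving out vehicle library 2 or treated library 1 ended that call (adjusted p = 0.0529 and 0.0509). PRMT5 mRNA, which an inhibitor of the enzyme need not change, stood at 91.5 ± 4.75 and 87.6 ± 1.09 CPM (SD, n = 3; adjusted p = 0.373). At 24 h 1 of the 6 rose, RIOK1, an alternative adaptor of PRMT5 (0.11 ± 0.03, adjusted p = 0.00766), and WDR77 was not called (-0.05 ± 0.02, adjusted p = 0.126).

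Of 13 tri-snRNP and U5 proteins outside the list of members, 7 rose, 0 fell and 6 were not called at 24 h, and 5 rose, 1 fell and 7 were not called at 96 h. PRPF3, a U4/U6 protein, went from 55.7, 58.4 and 54.4 CPM to 105, 103 and 103 CPM at 96 h (0.89 ± 0.05, adjusted p = 0.000102). The helicase gene DDX23 rose by 0.65 ± 0.06 at 96 h and by 0.19 ± 0.02 at 24 h (adjusted p = 0.000406 and 2.63e-05). For both the effect was more positive at 96 h than at 24 h (0.45 ± 0.06 and 0.44 ± 0.07, adjusted p = 0.000375 and 0.00109). These genes were named for the smallest p of their list. Of its 13 genes, 2 had a more positive and 2 a more negative difference, with a median of 0.02.

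Of 8 proteins of the minor spliceosome, 1 rose and 1 fell at 24 h, and 2 rose and 1 fell at 96 h. ZCRB1 fell at both times (-0.14 ± 0.04 and -0.30 ± 0.08, adjusted p = 0.0191 and 0.0153). Without vehicle replicate 1 or 2 or GSK591 replicate 1 or 3 its 24 h call was lost (adjusted p = 0.0687, 0.0892, 0.109 and 0.0804), as was its 96 h call without GSK591 replicate 1 or 3 (adjusted p = 0.052 and 0.0504). CENATAC, listed as CCDC84, rose at 96 h (0.38 ± 0.09, adjusted p = 0.0115). At 24 h the scarce mRNA of SCNM1 had a mean of 0.195 CPM in vehicle and 0.417 CPM in treated cells (adjusted p = 0.0144). That call was lost without vehicle replicate 1 or 3 (adjusted p = 0.0706 and 0.0503).

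In snRNA transcription and 3′ processing 2 of 18 genes rose and 1 fell at 24 h, and 3 rose and 3 fell at 96 h, no larger shares than among all genes at 96 h. INTS3 of the Integrator complex, which cleaves the snRNA precursor, rose at 96 h from 107, 102 and 105 CPM to 154, 153 and 145 CPM (0.53 ± 0.05, adjusted p = 0.000406). INTS2 rose at both times (0.12 ± 0.03 and 0.32 ± 0.07, adjusted p = 0.0141 and 0.00745). Leaving out vehicle library 3 or treated library 3 ended its 24 h call (adjusted p = 0.0506 and 0.0606). SNAPC4, a subunit of the snRNA promoter-binding complex, rose at 24 h (0.14 ± 0.03, adjusted p = 0.00426).

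In snRNA export, cap modification, import and the Cajal body 2 of 11 rose and 0 fell at 24 h, and 1 rose and 3 fell at 96 h. SART3, which helps U6 rejoin U4, rose at 24 h (0.11 ± 0.02, adjusted p = 0.00372). The Cajal body gene WRAP53 rose with it (0.12 ± 0.04, adjusted p = 0.0249) but lost the call with DESeq2 and with library size alone (adjusted p = 0.0528 and 0.0549), and in 4 of 6 fits that left out a library (0.0703 to 0.0974). The GTPase gene RAN fell at 96 h from 553 ± 36.0 to 444 ± 14.4 CPM (SD, n = 3; -0.32 ± 0.06, adjusted p = 0.00521). The cap-binding gene NCBP2 fell by less (-0.16 ± 0.05, adjusted p = 0.0227), a call lost when any library other than GSK591 replicate 2 was left out (adjusted p from 0.0566 to 0.0813).

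Of 5 genes of U6 maturation 0 were called at 24 h and 1 fell at 96 h, USB1, the U6 exonuclease, listed as C16orf57 (-0.18 ± 0.06, adjusted p = 0.0301). SSB, which shields new U6, and MEPCE, a capping enzyme, were not called (0.03 ± 0.02 at 24 h and -0.07 ± 0.05 at 96 h). The C16orf57 call was also lost when any library other than GSK591 replicate 2 was left out (adjusted p from 0.0561 to 0.131). The decay partners of the cytoplasmic LSm ring rose in 3 of 9 cases at 24 h and in 4 at 96 h, where 1 fell. XRN1, the 5′ exonuclease, went from 67.6, 64.1 and 70.1 CPM to 104, 106 and 86.5 CPM at 96 h (0.56 ± 0.08, adjusted p = 0.00184), and EDC4, a decapping scaffold, rose by 0.26 ± 0.05 (adjusted p = 0.00463). The 24 h rise of EDC4 (0.10 ± 0.03, adjusted p = 0.013) was lost without vehicle replicate 1 or without treated library 1 (adjusted p = 0.0734 and 0.0837). PATL1, which bridges the LSm ring to the decapping enzymes, rose by 0.17 ± 0.03 at 24 h (adjusted p = 0.000322).

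In histone pre-mRNA processing, where the U7 particle acts, 1 of 7 genes fell at 24 h, and 3 fell and 1 rose at 96 h. SLBP, which binds the histone stem-loop, went from 116, 130 and 115 CPM to 87.0, 84.2 and 91.5 CPM at 96 h (-0.46 ± 0.06, adjusted p = 0.00146), and CSTF2, a cleavage factor gene, fell by -0.42 ± 0.06 (adjusted p = 0.00187). SLBP also fell at 24 h (-0.11 ± 0.03, adjusted p = 0.00764), a call lost without GSK591 replicate 1 (adjusted p = 0.0539). CASP8AP2, a histone-locus protein gene, was not called at 24 h (0.07 ± 0.03, adjusted p = 0.107).

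Promoter windows of the members were read to show the DNA upstream of genes that moved together. The RefSeq promoter table (GRCh38.p14, a later build than the one used for the counts) held a window for 33 of the 38 members, and the 250 bases before each annotated start were searched on both strands for 6 motifs from a wider first look. CCAAT was found in 15 of the 33 (45.5%, against 33.0% of 27305 windows of the same length), GGGCGG, the GC box, in 21 (63.6% against 42.3%) and the ETS motif CCGGAAGT in 5 (15.2% against 3.6%). The E-box CACGTG was found in 2 (6.1% against 6.5%), the E2F motif TTTCCCGC in 1 (3.0% against 1.4%) and TATAAA in 1 (3.0% against 11.1%). None of these motifs contains another, but TTTCCCGC can share letters with a GC box on the other strand. The 27305 windows include genes not tested here, while all 38 members were tested, so these shares are not matched for expression. The 6 motifs were kept after their counts were seen. In 24 windows part of the 250 bases is annotated as an exon of the same gene in GENCODE v29. The windows below are shown because GEMIN4 and GEMIN5 fell and LSM10 rose at 96 h and none of their 3 windows overlaps an exon. For SNRPF, the Sm core gene that fell most, the stretch from 100 to 31 bases before the start is given. Capitals mark CCAAT or GGGCGG on either strand, and each is written 5′ to 3′ on the strand of the gene.
GEMIN4 (chr17:752265-752514, minus strand): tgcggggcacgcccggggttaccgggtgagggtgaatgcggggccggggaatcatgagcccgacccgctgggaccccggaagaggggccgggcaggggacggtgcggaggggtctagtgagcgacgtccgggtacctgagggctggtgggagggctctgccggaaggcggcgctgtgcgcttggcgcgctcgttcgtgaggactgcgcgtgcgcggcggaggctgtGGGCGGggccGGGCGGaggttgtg
GEMIN5 (chr5:154938212-154938461, minus strand): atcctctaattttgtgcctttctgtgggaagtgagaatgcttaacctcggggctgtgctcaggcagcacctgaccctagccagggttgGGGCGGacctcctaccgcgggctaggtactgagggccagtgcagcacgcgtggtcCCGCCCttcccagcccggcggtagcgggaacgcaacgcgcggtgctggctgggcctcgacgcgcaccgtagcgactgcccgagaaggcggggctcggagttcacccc
LSM10 (chr1:36397909-36398158, minus strand): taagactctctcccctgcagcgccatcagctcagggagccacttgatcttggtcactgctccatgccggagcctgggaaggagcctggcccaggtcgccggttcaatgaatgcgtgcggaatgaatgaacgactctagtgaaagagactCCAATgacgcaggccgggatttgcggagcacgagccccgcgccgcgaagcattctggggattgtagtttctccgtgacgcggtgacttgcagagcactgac
SNRPF (chr12:95858852-95858921, plus strand): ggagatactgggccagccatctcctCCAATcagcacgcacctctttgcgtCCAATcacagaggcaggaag
GEMIN4 and GEMIN5 each hold 2 GC box matches and LSM10 1 CCAAT match, and the SNRPF stretch holds 2 CCAAT matches. The full 250-base window of SNRPF also held a GC box, which the stretch shown does not. Of the 20 members with a window that were called lower at 96 h, 10 held CCAAT and 13 the GC box, close to the shares over all 33, and both members called higher held CCAAT. A match is a description of the letters and not a binding site.

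The authors' deposited table gave a similar picture at 96 h. In it 19 members had an FDR under 0.05 and were lower and 1 was higher, against 10.5% and 12.3% of all its genes, and each of these 20 was called in the same direction here. At 24 h the authors' deposited table had 4 members higher and 0 lower (2.32% and 5.43% of its genes), and these 4 were also called here.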

How the data were processed

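The deposited values are whole-number counts for gene symbols in a table for each time. The submitters' processing notes list STAR, HTSeq, edgeR and build hg19. Tool versions, gene models and strand setting are not given, so reads of overlapping or antisense genes, and of the near-identical pseudogene copies of Sm genes, cannot be told apart. Deposited tables of log2 fold changes and p-values, per the file headers, were read only where named. Sample columns were matched to titles.

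The 6 libraries of a time were fitted together, and all 12 for the difference between times, with edgeR 4.0.16 in R 4.3.3 (filterByExpr, TMM, quasi-likelihood test, two-sided, Benjamini-Hochberg over all genes, threshold 0.05). SE is the log2 fold change over the square root of F. CPM are TMM-scaled within a time. The common biological coefficient of variation of edgeR, the square root of its common dispersion, was 2.35% at 24 h and 8.19% at 96 h. It is not the coefficient of variation of CPM given above. DESeq2 1.42.0 was an alternative. Fits were tested on simulated data with 200 genes changed. A log2 change of 0.3 was recovered in 96.0% of genes at 24 h, 24.0% at 96 h and 22.0% for the difference. A change of 0.6 was recovered in 100.0%, 95.0% and 90.0%. More genes were called in the data than were changed here, so these shares do not carry over to the data. In 12 replicate pairs chi-square per degree of freedom was 2.3 to 41.9, so none agreed within sampling noise. Old symbols were matched through RefSeq synonyms.

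All 38 members were named, with the 2 genes of smallest p per partner list. Members and lists were chosen with earlier results of these data known.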

Additional observations from a re-analysis of the deposited data

Results flagged for a closer look

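The effect of GSK591 differed between 96 h and 24 h for 20 members by the test of the difference itself (edgeR, all 12 libraries, adjusted p under 0.05). The differences, 96 h minus 24 h on the log2 scale, were -0.29 for SNRPB, -0.42 for SNRPD1, -0.35 for SNRPD2, -0.26 for SNRPD3, -0.33 for SNRPE, -0.60 for SNRPF and -0.40 for SNRPG in the Sm core. Among the particle proteins they were -0.49 for SNRPA, -0.26 for SNRPC, -0.30 for SNRPA1, -0.31 for SNRNP40, -0.35 for SNRNP25 and -0.21 for SNRNP48. LSM2, LSM4, LSM5 and LSM7 had -0.34, -0.25, -0.31 and -0.47, and GEMIN4 and GEMIN5 had -0.33 and -0.40. GEMIN2 had 0.19, the sole positive difference.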

How the results depend on the processing

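No called member changed direction under any alternative run, and 14 of the 23 calls of 96 h and 17 of the 20 differences were kept in all of them, but 0 of the 5 calls of 24 h were. With all 12 libraries in 1 fit, 29 genes and 0 members were called at 24 h, against 1940 and 5. At 96 h the same fit called 7392 genes, against 5437. Every run of the difference used 1 spread per gene for both times. The 17 kept differences are thus not comparable with the 14 kept calls of 96 h. Leaving out 1 library in turn gave 3 (without GSK591 replicate 1) to 5 members higher and 980 (same library) to 2208 genes at 24 h, with 1068 without vehicle replicate 2 and 1041 without GSK591 replicate 3. At 96 h it gave 13 (without vehicle replicate 2) to 21 members lower, 1 to 4 higher (1 without vehicle replicate 1 or 3 or GSK591 replicate 1 or 3, and 4 without GSK591 replicate 2) and 3438 (without GSK591 replicate 1) to 7485 genes against 5437, with 3507 without vehicle replicate 2. For the difference it gave 17 to 21 members more negative, 0 to 1 more positive and 1991 (without GSK591 replicate 2 of 24 h) to 5712 (without GSK591 replicate 2 of 96 h) genes against 3298, with 2034 without vehicle replicate 3 of 24 h. Without both libraries numbered 2 at 96 h, 8201 genes and 5 members higher were called, and for the difference 6022 genes and 2 members more positive. With no filter 1 member was higher at 96 h and 0 more positive in the difference. GEMIN2, the 1 more positive member, lost that call in 10 of 12 fits without a library. The causes were not tested. Same-numbered libraries did not deviate together in every pair (r from 0.02 to 0.13 at 24 h and 0.01 to 0.29 at 96 h), so the numbers were not taken as pairs. For libraries of unlike number r ran from -0.08 to 0.04 at 24 h and from -0.34 to 0.22 at 96 h. At 96 h the pairs numbered 1 and 2 had r of 0.29 and 0.25, so a pairing of those libraries is not excluded. With the replicate block 6 members were higher at 24 h, 2 higher and 22 lower at 96 h, and 0 more positive and 20 more negative in the difference, with 2811, 6293 and 4323 genes called. It added GEMIN8 at 24 h, LSM3 at 96 h and LSM14B in the difference (adjusted p = 0.025, 0.0495 and 0.0117) and ended the GEMIN2 difference (adjusted p = 0.0567). Thinning the deep library left 21 members lower and 2 higher.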
